A study of Mus musculus with 12 samples.

Results

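The genes described here build the cytoskeleton of the young neuron: the neurofilament genes Nefl, Nefm and Nefh, the related filament gene Ina, the neuronal tubulin gene Tubb3, the microtubule-associated genes Map2, Mapt and Dcx, the microtubule regulator Stmn2 and the growth cone gene Gap43. They were followed in mouse embryonic stem (ES) cells differentiating into neural cells in monolayer culture with N2B27 medium, with RNA measured on 12 Affymetrix arrays. Every probe set was taken whose only gene symbol in the platform annotation is 1 of these 10 names, which gave 23 of the 45101 probe sets and 10 of 18193 named genes. Mapt, Map2 and Dcx have 4 probe sets each, Ina has 3, Nefl and Stmn2 have 2, and Nefm, Nefh, Tubb3 and Gap43 have 1. Probe sets of a gene share their target and are not replicates of a condition. The 12 samples form 6 groups of 2 arrays. The line rtTA-Dmrt5 carries the rtTA activator and a Dmrt5 transgene that doxycycline (Dox), a tetracycline, is meant to switch on; rtTA is its parental line, with the activator. Dox was added at day 5 of differentiation or left out, so that cells harvested at day 7 or day 9 had 2 or 4 days of it. There were thus 2 parental groups, both of day 7, and 4 rtTA-Dmrt5 groups, 2 of day 7 and 2 of day 9, with 1 group of each pair given Dox. All groups thus carry rtTA, the parental line at day 9 is not analysed here, and the sources used here give neither the Dox dose nor the number of clones behind either line. Nothing in the labels says that the 2 replicates of a group came from separate cultures; the p-values then reflect only how these samples scatter, which may be technical.

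Neurofilaments are the intermediate filaments of axons. The light chain (Nefl) is the core on which the medium (Nefm) and heavy (Nefh) chains assemble, alpha-internexin (Ina) forms filaments in young neurons and joins the others later, and the heavy chain is as a rule the last to appear as axons mature. Beta-III tubulin (Tubb3) and doublecortin (Dcx), a microtubule-binding protein of migrating neuroblasts, are early markers of newborn neurons. Map2 binds microtubules mainly in dendrites, tau (Mapt) mainly in axons, stathmin 2 (Stmn2, also SCG10) destabilises microtubules in growing axons, and Gap43 is a membrane-bound protein of growth cones.

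The 250 bases before the start site are shown for the 4 members that a RefSeq-derived table of promoters (build GRCm38.p6) holds. Each window reads 5′ to 3′ on the gene's own strand. Capitals mark CANNTG, the E-box that basic helix-loop-helix factors such as the proneural proteins can bind, and GGGCGG, the GC box, both searched on either strand. Other members are Nefl, Nefm, Nefh, Stmn2, Mapt and Gap43. The windows lie at chr19:47014431-47014680 on the plus strand for Ina, chr8:123411303-123411552 on the plus strand for Tubb3, chrX:143933220-143933469 on the minus strand for Dcx (the first of its 2 listed starts) and chr1:66175079-66175328 on the plus strand for Map2.
Ina: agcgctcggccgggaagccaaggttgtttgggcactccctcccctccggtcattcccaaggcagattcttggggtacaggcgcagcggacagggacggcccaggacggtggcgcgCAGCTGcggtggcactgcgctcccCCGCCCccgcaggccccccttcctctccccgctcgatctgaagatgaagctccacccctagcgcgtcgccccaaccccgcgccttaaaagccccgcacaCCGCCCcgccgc
Tubb3: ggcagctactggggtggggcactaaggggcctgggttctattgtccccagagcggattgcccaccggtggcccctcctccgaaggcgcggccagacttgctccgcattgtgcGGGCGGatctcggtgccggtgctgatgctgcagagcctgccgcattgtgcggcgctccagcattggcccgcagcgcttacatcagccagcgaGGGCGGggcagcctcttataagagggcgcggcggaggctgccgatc
Dcx: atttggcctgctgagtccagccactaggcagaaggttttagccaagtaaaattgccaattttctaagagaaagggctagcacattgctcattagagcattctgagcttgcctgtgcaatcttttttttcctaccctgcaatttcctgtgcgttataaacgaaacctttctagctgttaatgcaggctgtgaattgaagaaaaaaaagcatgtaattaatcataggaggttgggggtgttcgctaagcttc
Map2: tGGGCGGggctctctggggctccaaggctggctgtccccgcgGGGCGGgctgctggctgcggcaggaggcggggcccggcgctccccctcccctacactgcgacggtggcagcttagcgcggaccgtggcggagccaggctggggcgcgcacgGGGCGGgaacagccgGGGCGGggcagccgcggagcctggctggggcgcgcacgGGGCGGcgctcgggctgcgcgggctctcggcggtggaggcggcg
Ina held the single E-box among them, the palindrome CAGCTG, starting 135 bases before the start site, and 2 GC boxes. Tubb3 held 2 GC boxes and no E-box, Map2 5 GC boxes and no E-box, and Dcx neither. Among all 32851 listed windows of this length, 66.22% held an E-box, 13.0% held CAGCTG and 32.74% a GC box. The Dcx window was 41.6% G and C, against 68.0% for Tubb3, 70.8% for Ina and 81.2% for Map2 and a median of 52.4% over all windows. The marked motifs do not overlap each other. These matches describe the letters of the windows and were not tested for binding.

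The deposited values are centred: each probe set has a median of 0 over the 12 arrays, so a value says how far an array lies above or below that probe set's median on a log2 scale, and levels cannot be compared between probe sets. Column medians ran from -0.011 to 0.006. Changes are given in log2 with their standard error (SE) after ±, fitted by limma on n = 2 arrays a group, and a change counts as called at a Benjamini-Hochberg adjusted p under 0.05 over all 45037 probe sets tested. The transgene's gene was read first. Dmrta2, the current name of Dmrt5, read 1.91 and 1.85 in rtTA-Dmrt5 at day 7 without Dox but -0.14 and -0.95 with it, a change of -2.42 ± 0.33 (adjusted p = 0.00318), and the sign was the same at day 9 (-2.61 ± 0.33, adjusted p = 0.000823). It read 1.07 and 1.16 without Dox and -1.07 and -1.92 with it at day 9, and -0.22, 0.14, 0.41 and -0.28 in the parental arrays. This goes against the label of an induced gene, and the sources used here do not say whether the transgene's RNA contains the stretch that this probe set detects. Groups are therefore called arrays labelled +Dox and -Dox, and every direction below rests on those labels. The 2 day 9 arrays labelled +Dox also stood apart in technical readings: the 9 hybridisation spike-in probe sets averaged -0.79 and -0.67 there against -0.36 to 0.20 on the other 10 arrays, and the 3' minus 5' difference of Actb was 0.196 to 0.228 there against -0.365 to 0.065. Their part in the day 9 results was not tested.

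At day 7 in rtTA-Dmrt5 cells, the filament genes Nefl, Nefm and Ina fell in the arrays labelled +Dox, as did Tubb3, Stmn2 and Gap43, while the filament gene Nefh read higher. Of 23 probe sets 11 were lower and 0 higher, against 1.79% lower and 1.26% higher of all probe sets. The members were chosen with earlier results of these data known, which limits this and each later comparison with all probe sets or genes. The 11 belong to 7 of the 10 genes, and in Nefl, Nefm, Ina, Stmn2, Tubb3 and Gap43 every probe set passed. The median change over the 23 was -0.50, against 0.01 over all probe sets. With the probe sets of a gene averaged, 6 of 10 genes were lower and 1 (Nefh) higher, against 3.27% lower and 2.76% higher of all genes. In bulk RNA, fewer neurons and less of these RNAs per neuron cannot be told apart. With replicate 1 of either group dropped 7 probe sets stayed lower, and with replicate 2 of either group dropped 6 did.

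Nefm and Nefl showed the deepest falls, and Ina fell as well. Nefl, the light chain, read -0.17 and -0.19 in the arrays labelled -Dox and -1.39 and -1.47 in those labelled +Dox by probe set 1454672_at. The fall was -1.26 ± 0.11 (adjusted p = 0.000326), to 0.419 of the -Dox value, and probe set 1426255_at gave -1.20 ± 0.11. Nefm, the medium chain, read 0.01 and 0.03 without Dox and -1.30 and -1.89 with it. Its change of -1.61 ± 0.20 (adjusted p = 0.00189) left 0.327 of the -Dox value and was the largest fall among the members, with the larger gap between replicates lying in the arrays labelled +Dox. Nefl and Nefm are neighbours on their chromosome in the RefSeq gene table, with no protein-coding gene listed between them. For Ina, probe set 1448992_at read -0.30 and -0.44 without Dox and -1.23 and -1.43 with it. Its fall was -0.96 ± 0.13 (adjusted p = 0.00267), and the other 2 Ina probe sets gave -0.79 and -1.10, both past the threshold. In none of these 3 genes did the 2 groups overlap. With 2 arrays a group, such separation says little here and below. In the parental line 5 of 23 member probe sets were separate between arrays with and without Dox, and 0 were called. The share over all probe sets is not given here.

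Nefh, the heavy chain, went the other way. It read -1.33 and -0.79 in the day 7 arrays labelled -Dox and -0.03 and 0.39 in those labelled +Dox, which do not overlap. The difference of 1.24 ± 0.32 had adjusted p = 0.08 among probe sets and adjusted p = 0.0473 in the fit of gene means. With each gene read by its probe set with the largest SD instead, the same Nefh value had adjusted p = 0.053, so the call depends on that choice. In the parental line Nefh read 0.77 and 0.91 without Dox and 0.71 and 0.90 with it. All 4 parental arrays therefore lay above all 8 rtTA-Dmrt5 arrays. Nefh also had the largest SD over the 12 arrays of the gene means, at 0.846, and its correlation with the mean of the other 9 members was r = 0.04 over 12 arrays, where the others ran from 0.63 (Mapt) to 0.96 (Gap43). These correlations describe arrays that share groups and normalisation.

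**Figure D1:**
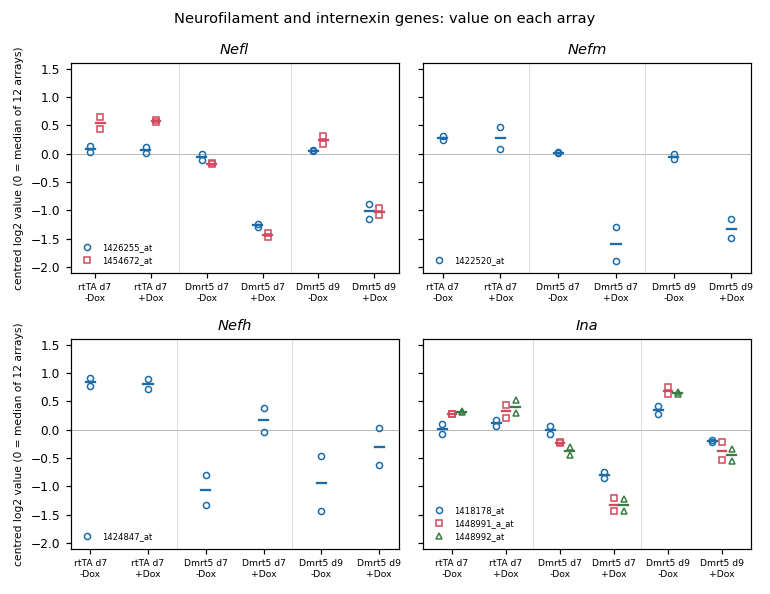
Centred log2 value (y axis; 0 is the probe set's median over 12 arrays) of each array for Nefl, Nefm, Nefh and Ina, by group (x axis; Dmrt5 stands for the rtTA-Dmrt5 line, d7 and d9 for the day). Points are arrays, short bars the mean of 2 arrays and colours the probe sets. Nefl, Nefm and Ina lie lower in the rtTA-Dmrt5 arrays labelled +Dox than in those labelled -Dox of the same day, while Nefh lies at -1.33 and -0.79 in the day 7 arrays labelled -Dox and above them with Dox.

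Among the genes of microtubules and growth cones, Stmn2, Tubb3 and Gap43 fell at day 7. Stmn2 read -0.02 and -0.03 without Dox and -0.84 and -0.79 with it by probe set 1423280_at. Its fall was -0.79 ± 0.10 (adjusted p = 0.00177), with -0.69 ± 0.11 for the other probe set. Tubb3 read -0.22 and -0.24 without Dox and -0.89 and -0.93 with it, a fall of -0.68 ± 0.11 (adjusted p = 0.00916). Gap43 read -0.79 and -0.73 without Dox and -1.39 and -1.35 with it, a fall of -0.61 ± 0.11 (adjusted p = 0.0179). The groups did not overlap in any of the 3 genes. The calls of Tubb3, Gap43 and the other Stmn2 probe set were lost whichever of the compared arrays was left out. That of Stmn2 1423280_at held.

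Dcx, Mapt and Map2 gave a mixed reading at day 7, because their probe sets differed. For Dcx, probe set 1418139_at read -0.32 and -0.46 without Dox and -0.86 and -1.04 with it, a fall of -0.56 ± 0.12 (adjusted p = 0.0326). The call of 1418139_at was lost whichever of the compared arrays was left out. The other 3 Dcx probe sets had values between -0.19 and -0.50 and did not pass. For Mapt, probe set 1424718_at read -0.80 and -1.06 without Dox and -1.17 and -1.42 with it, a difference of -0.36 ± 0.13 that did not pass (adjusted p = 0.189). Mapt probe set 1417885_at went the other way, at -0.41 and -1.14 without Dox and -0.72 and 0.13 with it, and its groups overlap. For Map2, probe set 1434194_at read 0.00 and -0.06 without Dox and -0.43 and -0.58 with it (-0.47 ± 0.14, adjusted p = 0.117). The Map2 probe set 1421328_at read -0.51 and -0.77 without Dox and -0.12 and -0.65 with it (0.25 ± 0.21), and the other 2 had -0.21 and -0.41, none past the threshold. Probe sets of 1 gene tracked each other closely over the 12 arrays in Nefl (r = 0.957), Stmn2 (r = 0.982) and Ina (r = 0.926 to 0.993), and loosely in Map2 (r = 0.308 to 0.654) and Dcx (r = 0.013 to 0.854).

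In the parental rtTA line at day 7, which has the activator without the transgene, no member changed detectably. In limma 0 of 23 probe sets passed, and 0 had an unadjusted p under 0.05, against 0.0% called and 2323 with an unadjusted p under 0.05 among all 45037. Their changes ran from -0.21 to 0.33, with a median of 0.05. Nefl 1454672_at read 0.65 and 0.43 without Dox and 0.60 and 0.56 with it, and Nefm 0.31 and 0.24 without and 0.47 and 0.07 with it, so the groups overlap in both genes. Nefm changed by -0.0047 ± 0.20 there, Nefl 1454672_at by 0.04 ± 0.11, Tubb3 by 0.02 ± 0.11 and Gap43 by -0.01 ± 0.11. The 95% interval for Nefl 1454672_at was -0.21 to 0.29 and that for Nefm -0.45 to 0.44.

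The Dox responses of the lines were then compared directly at day 7. The response of rtTA-Dmrt5 was more negative in 8 of 23 probe sets and more positive in 0, against 0.739% and 0.3% of all probe sets. The 8 are all the probe sets of Nefl, Nefm, Ina and Stmn2, with differences from -0.79 to -1.61. Nefm differed by -1.61 ± 0.28 (adjusted p = 0.0289), Nefl 1454672_at by -1.30 ± 0.16 (adjusted p = 0.00522) and Stmn2 1423280_at by -0.91 ± 0.14 (adjusted p = 0.0139). Tubb3 (-0.70 ± 0.16, adjusted p = 0.0814) and Gap43 (-0.60 ± 0.16, adjusted p = 0.142) did not pass. Nefh had 1.28 ± 0.46 (adjusted p = 0.288). This test shares the rtTA-Dmrt5 arrays with the day 7 response, so it is not separate support for it. With probe sets averaged, 5 of 10 genes were more negative and 0 more positive, against 1.69% and 0.764% of all genes; there Tubb3 passed (adjusted p = 0.0296) and Gap43 did not (adjusted p = 0.0613), so the Tubb3 call depends on the fit. The count of probe sets fell to 5 when the day 9 arrays were left out of the fit. Dropping single arrays left fewer calls: in the parental line, 3 without replicate 1 and 2 without replicate 2 labelled -Dox, and 3 without replicate 1 and 6 without replicate 2 labelled +Dox. In rtTA-Dmrt5 they were 2 and 1 without replicate 1 and 2 labelled -Dox, and 5 and 1 without replicate 1 and 2 labelled +Dox. Nefl 1454672_at was the single call kept in all 8 of these fits, at adjusted p from 0.0127 to 0.0337.

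**Figure D2:**
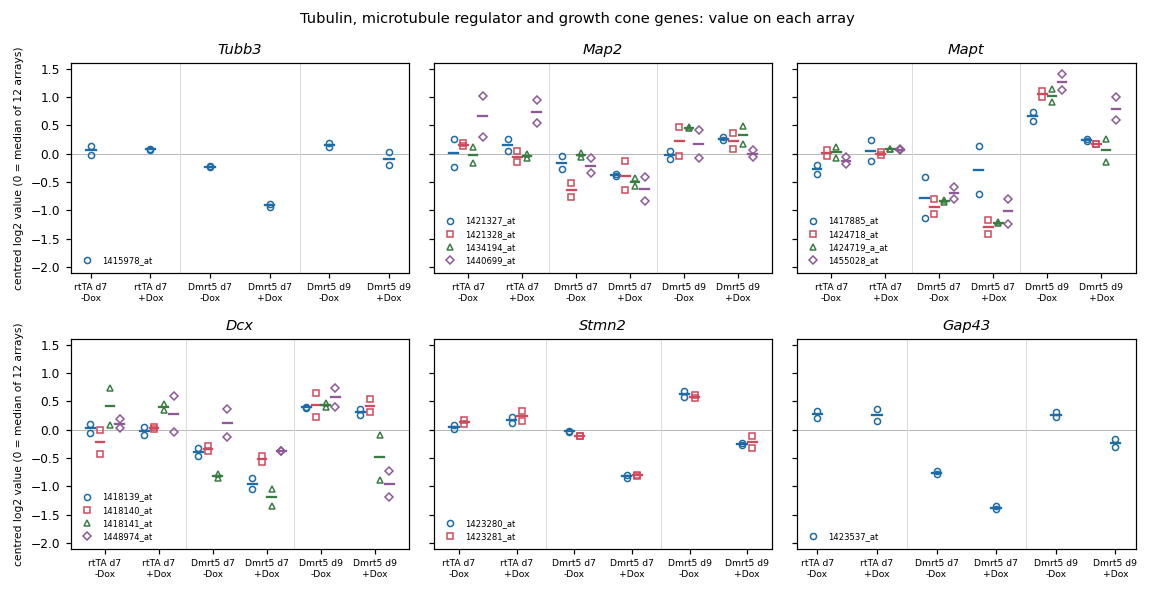
Centred log2 value (y axis; 0 is the probe set's median over 12 arrays) of each array for Tubb3, Map2, Mapt, Dcx, Stmn2 and Gap43, by group (x axis; Dmrt5 stands for the rtTA-Dmrt5 line, d7 and d9 for the day). Points are arrays, short bars the mean of 2 arrays and colours the probe sets. Tubb3 and Gap43 lie lowest in the day 7 arrays of rtTA-Dmrt5 labelled +Dox (-0.89 and -0.93, and -1.39 and -1.35), and the 4 probe sets of Dcx separate at day 9 with Dox.

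At day 9, after 4 days of Dox, Nefl, Nefm, Ina and Stmn2 were again lower in the arrays labelled +Dox, Gap43 too, and Mapt and Dcx were lower by 2 of their 4 probe sets each. Of 23 probe sets 13 were lower and 0 higher, against 7.95% lower and 10.3% higher of all probe sets, and the 13 belong to 7 genes. The median change over the 23 was -0.55, against -0.02 over all. With probe sets averaged, 7 of 10 genes were lower and 0 higher, against 10.1% lower and 14.7% higher of all genes. The day 7 and day 9 responses share no arrays.

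Nefl 1454672_at read 0.17 and 0.32 in the day 9 arrays labelled -Dox and -1.09 and -0.96 in those labelled +Dox. The fall was -1.27 ± 0.11 (adjusted p = 0.000153), close to the -1.26 of day 7, and 1426255_at gave -1.08 ± 0.11. Nefm read -0.10 and -0.01 without Dox and -1.16 and -1.49 with it, a fall of -1.27 ± 0.20 (adjusted p = 0.00248). Ina 1448992_at read 0.67 and 0.63 without Dox and -0.33 and -0.56 with it, a fall of -1.10 ± 0.13 (adjusted p = 0.000526). The other Ina probe sets gave -0.55 and -1.06, and all groups of these 3 genes were separate. Nefh read -1.43 and -0.46 without Dox and 0.03 and -0.63 with it (0.65 ± 0.32, adjusted p = 0.202), and its groups overlap.

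Stmn2 1423280_at read 0.68 and 0.59 without Dox and -0.27 and -0.23 with it at day 9, a fall of -0.88 ± 0.10 (adjusted p = 0.000442). Mapt 1424718_at read 1.10 and 1.01 without Dox and 0.17 in both arrays labelled +Dox, a fall of -0.88 ± 0.13 (adjusted p = 0.0015). Mapt 1424719_a_at fell by 0.96 ± 0.14, while 1455028_at (-0.47 ± 0.18) and 1417885_at (-0.42 ± 0.28) did not pass. Gap43 read 0.22 and 0.31 without Dox and -0.30 and -0.16 with it, a fall of -0.49 ± 0.11 (adjusted p = 0.0148). Tubb3 read 0.20 and 0.12 without Dox and -0.19 and 0.02 with it, a difference of -0.24 ± 0.11 that did not pass (adjusted p = 0.165). Map2 did not pass by any probe set, with values from -0.18 to 0.29, and 1434194_at read 0.46 and 0.45 without Dox and 0.17 and 0.49 with it. Map2 1421327_at went the other way, at -0.09 and 0.04 without Dox and 0.29 and 0.24 with it (0.29 ± 0.16, adjusted p = 0.255).

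Dcx split by probe set at day 9. Probe set 1448974_at read 0.41 and 0.75 without Dox and -1.19 and -0.73 with it, a fall of -1.54 ± 0.24 (adjusted p = 0.00242). Probe set 1418141_at fell by 0.93 ± 0.26 (adjusted p = 0.0331), from 0.41 and 0.48 to -0.89 and -0.09. The other pair of Dcx probe sets showed almost no difference: 1418139_at read 0.39 and 0.40 without Dox and 0.26 and 0.37 with it (-0.08 ± 0.12), and 1418140_at gave -0.01 ± 0.17. As read from the number format of the deposited values, 1448974_at was the dimmest of the 4, with a median log2 level of 2 to 4, while 1418139_at was at 8 or more. The sources used here do not tell which Dcx transcripts each of them detects.

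**Figure D3:**
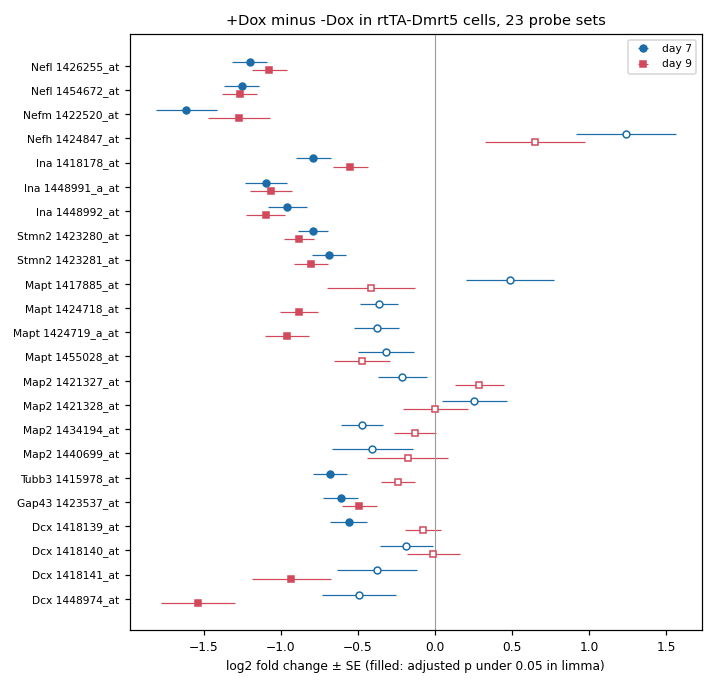
Log2 fold change ± SE (x axis) of arrays labelled +Dox against -Dox in rtTA-Dmrt5 cells for each of the 23 probe sets (y axis), at day 7 (circles) and day 9 (squares), n = 2 arrays a group. Filled symbols passed adjusted p 0.05 in limma, 11 at day 7 and 13 at day 9; all filled symbols lie below 0, and Nefh lies above 0 at both days with open symbols.

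Whether the response differed between the days was tested as day 9 minus day 7 response. In limma 0 of 23 probe sets passed, against 0.639% of all probe sets, and 6 of the 23 had an unadjusted p under 0.05, as did 6564 of all 45037. The differences ran from -1.04 (Dcx 1448974_at, adjusted p = 0.2) to 0.50 (Map2 1421327_at). For Tubb3 the difference was 0.44 ± 0.16 (adjusted p = 0.237), with an unadjusted 95% interval of 0.09 to 0.79. For Dcx 1418139_at it was 0.48 ± 0.17 (adjusted p = 0.223), and for Mapt 1424718_at -0.52 ± 0.18 (adjusted p = 0.218). For Nefl 1454672_at it was -0.01 ± 0.16 with an interval of -0.37 to 0.35. Passing at 1 day and not at the other, as Tubb3, Mapt and single probe sets of Dcx did, is therefore not shown to be a difference between days.

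From day 7 to day 9 most members rose in rtTA-Dmrt5 cells, in the arrays labelled -Dox and in those labelled +Dox. Without Dox 13 of 23 probe sets were higher and 0 lower, against 4.29% and 3.37% of all probe sets, and with Dox 14 were higher and 0 lower, against 5.18% and 3.92%. The median change was 0.70 without Dox and 0.64 with it. With probe sets averaged, 7 of 10 genes were higher without Dox and 8 with it, against 6.83% and 8.03% of all genes, with 0 lower in both, against 6.04% and 5.27%. These pairs of groups share no arrays with each other, but each shares arrays with the Dox responses above. The count with Dox was 9 when only the 4 arrays compared were fitted, and 9 without replicate 2 of the day 7 arrays labelled +Dox.

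Tau rose most. Mapt 1424718_at went from -0.80 and -1.06 at day 7 to 1.10 and 1.01 at day 9 without Dox, by 1.99 ± 0.13 (adjusted p = 5.09e-05), or 3.96 times. With Dox it went from -1.17 and -1.42 to 0.17 and 0.17, by 1.47 ± 0.13 (adjusted p = 0.000233). All 4 Mapt probe sets passed without Dox (1.44 to 1.99) and 3 of 4 with it. Gap43 rose by 1.02 ± 0.11 without Dox and by 1.15 ± 0.11 with it. Dcx 1418139_at rose by 0.79 ± 0.12 and by 1.27 ± 0.12, Stmn2 1423280_at by 0.66 ± 0.10 and by 0.57 ± 0.10, and Ina 1448992_at by 1.03 ± 0.13 and by 0.88 ± 0.13. Tubb3 passed with Dox (0.83 ± 0.11, adjusted p = 0.00211) and not without it (0.39 ± 0.11, adjusted p = 0.0663).

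No probe set of the 3 neurofilament chains rose past the threshold between the days, while Nefl passed in fits over genes. Nefm changed by -0.07 ± 0.20 without Dox and by 0.27 ± 0.20 with it. Nefl 1454672_at gave 0.42 ± 0.11 (adjusted p = 0.052) and 0.41 ± 0.11 (adjusted p = 0.0528), just outside the threshold. With its probe sets averaged, Nefl passed with Dox (0.33 ± 0.09, adjusted p = 0.0368) and not without it (0.27 ± 0.09, adjusted p = 0.0754). With each gene read by its probe set with the largest SD, Nefl passed in both (adjusted p = 0.0453 without Dox and 0.0456 with it). Nefh had 0.12 ± 0.32 and -0.48 ± 0.32.

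**Figure D4:**
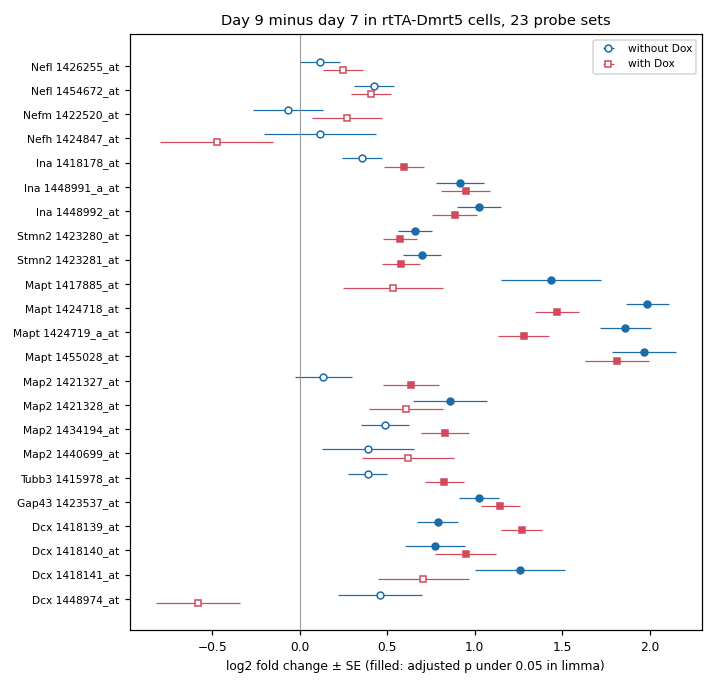
Log2 fold change ± SE (x axis) of day 9 against day 7 in rtTA-Dmrt5 cells for each of the 23 probe sets (y axis), in arrays labelled -Dox (circles) and +Dox (squares), n = 2 arrays a group. Filled symbols passed adjusted p 0.05 in limma, 13 without and 14 with Dox; the Mapt probe sets reach 1.99, and those of Nefl, Nefm and Nefh are open.

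The lines also differed before any Dox. The 3' minus 5' differences moved with the line: Actb read -0.365 and -0.281 in rtTA against 0.065 and 0.048 in rtTA-Dmrt5, and Gapdh -0.137 and -0.078 against 0.049 and 0.042. Their part in the values below was not tested. At day 7 without Dox, 11 of 23 probe sets were lower in rtTA-Dmrt5 than in rtTA and 0 higher, against 9.95% and 8.72% of all probe sets. With probe sets averaged, 6 of 10 genes were lower and 0 higher, against 13.2% and 13.6% of all genes. Nefh differed by -1.90 (SE 0.32, adjusted p = 0.00304), Gap43 by -1.04 (SE 0.11, adjusted p = 0.000264) and Mapt 1424718_at by -0.94 (SE 0.13, adjusted p = 0.000835). Gap43 read 0.34 and 0.21 in rtTA against -0.79 and -0.73 in rtTA-Dmrt5. Nefm (-0.26 ± 0.20), Tubb3 (-0.29 ± 0.11) and Stmn2 1423280_at (-0.08 ± 0.10) did not pass. The 2 Nefl probe sets differed, at -0.15 ± 0.11 and -0.72 ± 0.11 (adjusted p = 0.00214 for the latter). The count was 6 with parental replicate 1 dropped, and 6 and 7 with rtTA-Dmrt5 replicate 1 and 2 dropped.

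Set in order by their gene means, 9 of the 10 genes were lowest in rtTA-Dmrt5 at day 7 labelled +Dox, the exception being Nefh, which was lowest in the day 7 arrays labelled -Dox. In 8 of the 10 the lowest group's replicates were separate from those of the next group; for Nefm and Nefh they overlapped. Over all 18193 genes, 14.1% were lowest in that day 7 group labelled +Dox, and in 33.8% the lowest group was separate from the next. The top of the order differed by gene: 6 genes were highest at day 9 without Dox (Ina, Stmn2, Mapt, Map2, Tubb3 and Dcx) and 4 in the parental line (Nefl, Nefm, Nefh and Gap43). Nefl fell in the order parental with Dox (0.32), parental without Dox (0.31), day 9 without Dox (0.15), day 7 without Dox (-0.12), day 9 with Dox (-1.02) and day 7 with Dox (-1.35), with overlap between the first pair alone. For Mapt the day 9 groups were on top (1.001 without Dox and 0.32 with it), and the day 7 groups of rtTA-Dmrt5 at the bottom (-0.811 without Dox and -0.955 with it). Map2 had means of 0.20 to 0.21 in its 4 highest groups, whose neighbours overlap.

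More of the other neuronal cytoskeleton genes fell than rose at both days, and at day 7 most were not called. The shares over all genes were 3.27% lower and 2.76% higher at day 7, and 10.1% lower and 14.7% higher at day 9. Of a list of 40, 38 were named by a probe set; at day 7, 9 were lower and 1 higher in the arrays labelled +Dox, and at day 9, 16 were lower and 3 higher, with a median of -0.25 and -0.26, against 0.014 and 0.004 over all genes. Map6, a protein that stabilises microtubules, fell by 0.93 ± 0.10 and 1.01 ± 0.10, the stathmin Stmn4 by 0.92 ± 0.14 and 0.80 ± 0.14, and Dpysl3, a collapsin response mediator of growing axons, by 0.78 ± 0.12 and 0.60 ± 0.12. Sncg, gamma-synuclein, fell by 0.47 ± 0.11 and 1.54 ± 0.11. The gene of this list that rose at day 7 was Nes (0.55 ± 0.13, adjusted p = 0.0387), whose product nestin is the filament of neural progenitors. Nes rose again at day 9 (0.76 ± 0.13), with Dbn1 (0.29) and Fez1 (0.30). Other progenitor markers split at day 7: Fabp7 (-1.78), Pax6 (-0.89) and Sox2 (-0.70) were lower, Slc1a3 (0.87) and Notch1 (0.43) higher. From day 7 to day 9, 17 of the 38 rose without Dox and 15 with it, and 0 fell. Of all genes 6.83% rose without Dox and 8.03% with it, and 6.04% and 5.27% fell. Between the lines' responses 3 of 38 differed, Map6, Stmn4 and Dpysl3, all more negative in rtTA-Dmrt5. The shares of all genes there were 1.69% more negative and 0.764% more positive. Between the days' responses 2 of 38 differed, Sncg (-1.08 ± 0.15, adjusted p = 0.0124) and Fez1 (0.63 ± 0.13, adjusted p = 0.05, just inside the threshold), against 1.54% of all genes.

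No ubiquitous tubulin or actin gene was called in the Dox responses. Of 8 named genes 0 were called at either day, with medians of 0.015 and 0.055. Among all genes 3.27% were lower and 2.76% higher at day 7, so 0 of 8 lies near that share, and 10.1% and 14.7% at day 9. At day 7 the tubulin Tubb5 had 0.03 ± 0.10 and Actb 0.0005 ± 0.08. Pfn1 read 0.34 ± 0.19 at day 7 and 0.45 ± 0.19 at day 9. Between the lines without Dox 4 of the 8 were lower in rtTA-Dmrt5, Actb, Cfl1, Pfn1 and Tubb5, against 13.2% of all genes. Whether the Tubb3 probe set also reads other tubulin genes was not tested.

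Some lists of cell type markers moved between these groups, while others split or had few calls. For reference, 3.27% of all genes were lower and 2.76% higher at day 7, and 10.1% lower and 14.7% higher at day 9. Between the lines without Dox the shares were 13.2% lower and 13.6% higher. Of 15 neuron markers outside the cytoskeleton, 5 fell and 1 rose at day 7 and 9 fell and 0 rose at day 9; their list mean ran from -0.22 to -0.19 in day 7 arrays labelled -Dox, -0.64 to -0.53 in those labelled +Dox, 0.68 to 0.72 at day 9 without Dox and 0.03 to 0.12 at day 9 with it. Nhlh1, a transcription factor of newborn neurons, fell by 1.67 ± 0.13 at day 7, and Elavl3, a neuronal RNA-binding protein, by 0.84 ± 0.13. The 1 that rose at day 7 was Myt1l (0.83 ± 0.12, adjusted p = 0.00281 in limma), and Rbfox3 read 0.54 ± 0.15 without passing. Of 9 epithelium markers 4 rose and 0 fell at day 7 and 6 rose and 0 fell at day 9, such as Krt7 (1.45 ± 0.22 and 1.62 ± 0.22). Their list mean ran from -0.045 to 0.001 and 0.50 to 0.60 at day 7 without and with Dox, and from -0.45 to -0.27 and 0.56 to 0.73 at day 9. Of 11 ES cell markers 6 rose at day 7 and 7 at day 9, and 0 fell at either; between the lines without Dox 8 were lower in rtTA-Dmrt5 and 1 higher. The ES list mean was 0.53 to 0.65 in the 4 parental arrays, -0.91 to -0.85 and -0.47 to -0.38 at day 7 without and with Dox, and -0.20 to -0.15 and 0.29 to 0.35 at day 9. Neural progenitor markers split, with 3 of 11 lower and 3 higher at day 7, and 4 lower and 2 higher at day 9. Of 9 glial markers 2 were lower at day 7 and 1 higher at day 9. Of 10 mesenchyme and neural crest markers 3 were lower and 1 higher at day 7, and 3 and 3 at day 9. Of 8 cell cycle genes 1 was higher at day 7 and 6 at day 9. Centred values cannot show whether any of these markers is absent, and the part of these cells in the members' changes was not tested.

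**Figure D5:**
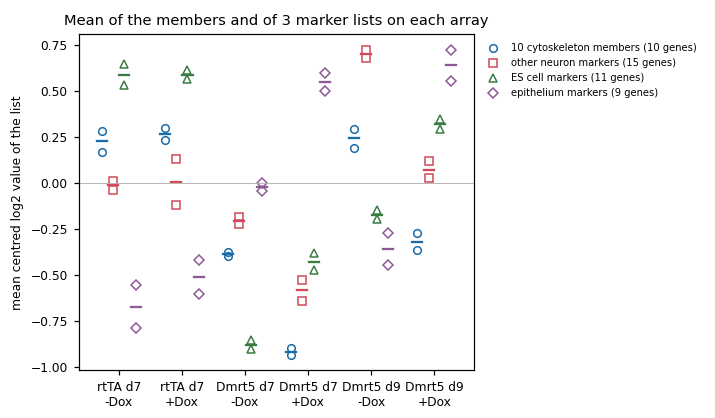
Mean centred log2 value (y axis) of the 10 members and of 3 marker lists on each array, by group (x axis; Dmrt5 stands for the rtTA-Dmrt5 line, d7 and d9 for the day). Points are arrays and short bars the mean of 2 arrays. The members and the other neuron markers lie lower in rtTA-Dmrt5 arrays labelled +Dox than in those labelled -Dox of the same day, while the epithelium and ES cell lists lie higher.

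Over the 12 arrays, the genes whose profiles lay closest to the mean of the 10 members were Tmcc2 (r = 0.985), Pik3r3 (r = 0.982), Gng3 (r = 0.98), Syt1 (r = 0.979), Kcnk10 (r = 0.976), Vat1l (r = 0.976), Phyhipl (r = 0.973) and Smpdl3a (r = 0.973). They are the top 8 of 4441 genes that varied at least as much as the least variable member, and the arrays share groups and normalisation. Syt1 encodes the calcium sensor of synaptic vesicle release and Gng3 a neuronal G protein subunit. Gng3 fell by 0.995 at day 7 and 1.04 at day 9, and Smpdl3a, a phosphodiesterase gene, by 1.73 and 1.31.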

How the data were processed

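RNA of 12 samples in 6 groups of 2 was amplified from 5 ng of total RNA with a NuGEN kit, labelled with biotin and read on Affymetrix arrays, per the labels' protocols. The values deposited by the authors are log2 values from RMA, which corrects background, equalises the arrays' distributions by quantiles and summarises the probes of a set, per the submitters' processing notes; the version, and the log base, are not given in the sources used here, and RMA is defined on log2. Each probe set is centred on its median, as found from the values, and scanner files were not used here, so the direction (larger for more RNA) could not be set against raw signals.

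Probe sets were named from the platform annotation: beside 64 control probe sets, 34945 had 1 symbol, 932 several and 9160 none. All 23 member probe sets matched a gene number in RefSeq with an unchanged symbol. limma 3.58.1 in R 4.3.3 fitted a mean per group over all 12 arrays (6 residual and 3.92 prior degrees of freedom for 45037 probe sets), with Benjamini-Hochberg adjustment within each of 8 comparisons; the same fit on the mean of each gene's probe sets covered 18193 genes. The fit was tested on simulated data. With 2 arrays a group their number limits the precision. A rough level was read from the spacing of single-precision values above the median; the tolerance of that reading was corrected after its first class counts were seen and before any comparison was fitted. Alternatives were a robust spread, array weights, the arrays compared only, a replicate block, columns centred on their median, a level of at least 4, each array left out, and the probe set with the largest SD per gene. Python 3.11.15, pandas 2.3.3 and matplotlib 3.10.9 made tables and plots.

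All members are named; values per array are given for each gene's probe set with the smallest p in a Dox response of rtTA-Dmrt5 and for probe sets that go the other way. Members and lists were chosen with earlier results of these data known. Lists share Nes between progenitors and cytoskeleton. Same-numbered replicates of a line and day had deviations that correlated at 0.028, -0.061 and 0.143, so the numbers were not taken as pairs.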

Additional observations from a re-analysis of the deposited data

Results flagged for a closer look

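The Dox response at day 7 differed between the lines, by the test of that difference in limma, for 8 probe sets of 4 genes. All 8 were more negative in rtTA-Dmrt5, as were 0.739% of all probe sets, while 0.3% were more positive. The rtTA-Dmrt5 response minus the parental response was -1.18 and -1.3 for the 2 probe sets of Nefl, -1.61 for Nefm, -0.9, -1.15 and -1.05 for the 3 of Ina, and -0.91 and -0.79 for the 2 of Stmn2. Of these calls, that of Nefl 1454672_at alone held whichever of the compared arrays was left out, as given above. The lines also differed without Dox, and groups of 2 arrays were too small for a search for single outlying arrays.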

How the results depend on the processing

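No call among the members changed direction under any of the alternatives. Of 312 member calls recomputed with an array left out, 203 kept their call, and of 417 recomputed under the other settings 388 did. The counts of called probe sets outside 1.5 times of the reported ones were those for the difference between lines, at 2 with the replicate number as a block and 5 with the arrays compared only (8 reported), and for day 9 minus day 7 with Dox, at 9 with the arrays compared only (14 reported). With each array left out in turn, the count ran from 6 to 7 for the day 7 Dox response, from 1 to 6 for the difference between lines, from 9 to 13 for day 9 minus day 7 with Dox and from 6 to 8 between the lines without Dox. A group with an array left out has 1 array, which is then assumed to vary like the other groups. The replicate block moved no other count of members past 1.5 times, and it gave 10 and 13 calls in the Dox responses of day 7 and day 9. Among all probe sets, counts moved by over 1.5 times under settings that keep all arrays compared as follows: the day 7 response (1372 reported) to 2666 with array weights and 775 with the arrays compared only, the day 9 response (8230) to 3426, day 9 minus day 7 with Dox (4098) to 1491 and without it (3447) to 1984, the last 3 with the arrays compared only. The difference between days (288) went to 72 with the arrays compared only, 630 at a level of at least 4 and 0 with the block, and that between lines (468) to 225 with the block. The parental response had 1 call with the block (0 reported). With each array left out, the counts over all probe sets ran from 496 to 662 for the day 7 response, 4068 to 7449 for day 9, 173 to 322 between lines, 5 to 625 between days, 1210 to 1671 for day 9 minus day 7 without Dox and 1299 to 3467 with it, and 4100 to 5767 between the lines without Dox. Centred values give no signal over background, so dim probe sets could be set aside by a rough level alone.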
